A study of Gallus gallus with 15 samples.

Results

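The SLC25A genes encode carriers that move metabolites, nucleotides, coenzymes and ions across the inner membrane of mitochondria. They were described in the livers of male chickens of 5 breeds. A member was any feature of the array whose platform annotation gives exactly 1 gene symbol that begins with SLC25A, and the feature with the highest mean over all birds stood for a gene with several. This rule gave 28 genes from 29 features, of 11528 genes with a single symbol and 18308 features in all. Only SLC25A29 had a second feature. SLC25A6 and SLC25A25 carry a symbol but no gene ID in the annotation, and the other 26 matched a current chicken gene.

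White Leghorn (WL) was the control breed, set beside 4 native Korean breeds: Hoengseong Yakdak (Ya), Hwangbong (Hw), Yeonsan Ogye (Og) and Hyunin Black (Bl). Each breed had 3 males with 1 array a bird, and a bird is written as its breed with its replicate number. All hatched from eggs of local farms, were kept on 1 farm with free access to feed, and were 13 weeks old. Relatedness within a breed and feeding just before sampling are not given in the sources used here. Values are log2 expression values as deposited, differences are between log2 means, and a difference of 1 is a 2-fold change.

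Most of these proteins share a fold of repeated pairs of membrane helices and exchange one compound for another. In liver they link the mitochondrion to the cytosol: citrate leaves for fatty acid synthesis, acylcarnitines enter for oxidation, phosphate and ADP enter while ATP leaves, and aspartate leaves in exchange for glutamate in the shuttle that carries reducing power. Birds excrete nitrogen mainly as uric acid, so the ornithine carrier does not serve a full urea cycle in their liver as it does in mammals.

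The labelled tissue was borne out by its markers. The 6 measured hepatocyte genes of a list of 7, ALB among them at 13.80, had list means between 13.29 and 13.38 in the breeds. Array medians lay between 6.12 and 6.20, and correlations between arrays were 0.977 to 0.991. Hyunin Black 1 had the highest array median, 6.20, and was the lowest of the 15 birds for 6 of the 28 carriers and the highest for 0. Other birds were uneven as well. Hwangbong 1 was the lowest for 4, and Hwangbong 2 was the highest for 5 and the lowest for 0. Array background was not measured. Of the female W chromosome, which these males lack, 3 genes were measured, and they averaged 2.38 (UBAP2L2), 4.30 (HINTW) and 6.30 (ATP5F1AW). SLC25A40 lay below all of them. The 7 carriers below the highest were SLC25A15, SLC25A24, SLC25A26, SLC25A36, SLC25A37, SLC25A40 and SLC25A48. Their values are thus not shown to be above background. By breed mean, SLC25A33 also lay below the mean of ATP5F1AW over all birds in Hyunin Black, White Leghorn and Yakdak. So did SLC25A21 and SLC25A32 in Ogye and SLC25A38 in Hwangbong. Against ATP5F1AW in the same breed, SLC25A33 in Yakdak lay above it, at 6.20 against 6.14. SLC25A32 in White Leghorn lay below it, at 6.35 against 6.57. ATP5F1AW is a high yardstick, above the median mean of all features, 6.15, and what else its feature may read was not checked. In whole liver, fewer cells of a type and less RNA per cell cannot be told apart.

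None of the 28 carriers differed among the breeds after adjustment over all features. In limma's F test 0 of 28 passed at an adjusted p under 0.05, against 1.6% of all features. At an unadjusted p under 0.05 there were 2 of 28, SLC25A21 and SLC25A33, against 16.1% of all features. The median F statistic was 0.89 over the members and 1.3 over all features. The distance between the highest and the lowest breed mean had a median of 0.24 over the members and 0.30 over all features, both on the log2 scale. It was under 0.5 in 22 members and under 1 in 27, with SLC25A30 the exception.

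**Figure D1:**
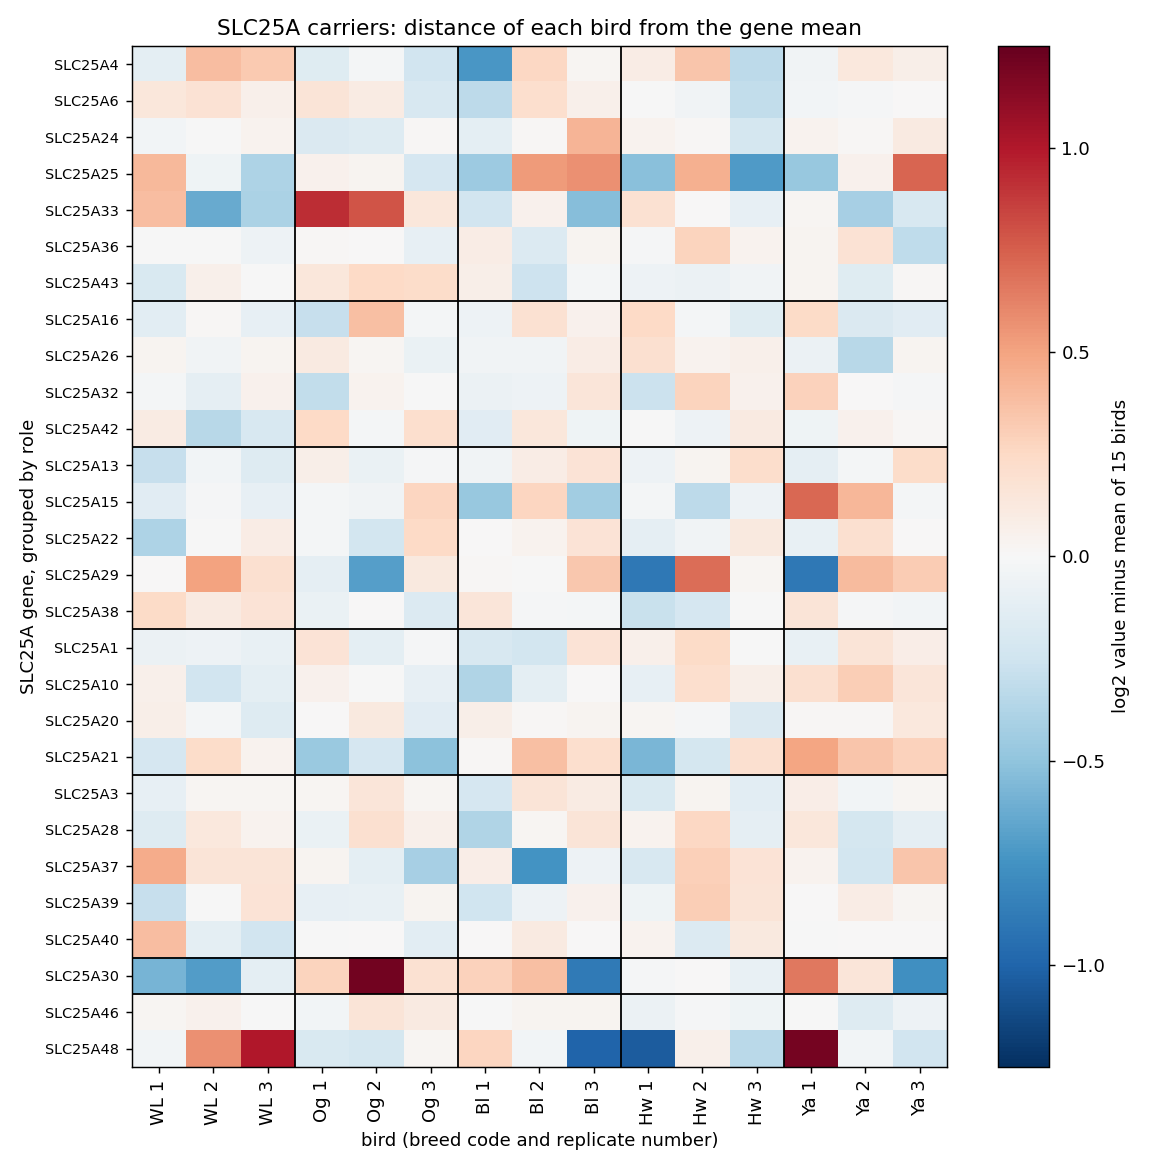
Log2 value of each of the 28 SLC25A genes in each of the 15 birds, minus the mean of that gene over all birds. Columns are birds in breed order and rows are genes grouped by role, with lines between groups. The strong colours lie in single birds of SLC25A25, SLC25A29, SLC25A30, SLC25A33 and SLC25A48 more than in whole breeds.

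Among carriers of carboxylates and acylcarnitines, SLC25A21 had the largest F of all members. It carries oxodicarboxylates such as the oxoadipate formed in lysine and tryptophan breakdown. Its values were 7.13, 6.99 and 6.93 in the 3 Hoengseong Yakdak birds, 6.66, 7.02 and 6.86 in Hyunin Black, 6.43, 6.87 and 6.69 in White Leghorn, 6.08, 6.42 and 6.84 in Hwangbong and 6.18, 6.43 and 6.14 in Yeonsan Ogye. Every Yakdak bird lay above every Ogye, Hwangbong and White Leghorn bird, and Hyunin Black 2 lay among the Yakdak birds. The F statistic was 6.04 (limma, adjusted p = 0.12), and 10.2 without Hw 3 (adjusted p = 0.0555). Yakdak minus Ogye was 0.77 ± 0.18 (SE; 95% interval 0.39 to 1.15), or 1.70-fold, with adjusted p = 0.0975, the smallest of any member in any comparison. In the order of means, Ogye, Hwangbong, White Leghorn, Hyunin Black and Yakdak, the birds of each breed overlapped those of the next. The Ogye mean, 6.25, lay just below that of ATP5F1AW over all birds, 6.30, so the Ogye values are not shown to be above background.

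SLC25A1, which exports citrate for fatty acid synthesis, had breed means from 10.88 ± 0.22 (SD, n = 3) in Hyunin Black to 11.07 ± 0.12 in Hwangbong. SLC25A20, which takes in acylcarnitines for oxidation, lay between 9.67 ± 0.11 in Hwangbong and 9.78 ± 0.07 in Yakdak. For both genes all 10 intervals of a breed difference lay within 0.5 in either direction. SLC25A10, the dicarboxylate carrier, spread further between breeds. It was highest in Yakdak at 9.32 ± 0.08 and lowest in Hyunin Black at 8.93 ± 0.19. Their difference was 0.39 ± 0.12 (SE; adjusted p = 0.218 in limma), and the birds of these 2 breeds did not overlap.

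SLC25A33 led the nucleotide carriers. It transports pyrimidine nucleotides, which mitochondria need for their own DNA and RNA. Ogye birds stood at 7.32, 7.18 and 6.54, White Leghorn at 6.78, 5.76 and 6.0, Hyunin Black at 6.16, 6.45 and 5.86, Hwangbong at 6.59, 6.39 and 6.29 and Yakdak at 6.42, 5.98 and 6.19. Ogye lay above every Hyunin Black and Yakdak bird and overlapped White Leghorn and Hwangbong through Ogye 3. Mean values of Hyunin Black (6.16), White Leghorn (6.18) and Yakdak (6.20) lay below that of ATP5F1AW over all birds, 6.30. SLC25A33 is thus not shown to be above background in these breeds, although ATP5F1AW itself averaged 6.14 in Yakdak. The Ogye mean of SLC25A33, 7.01, lay above ATP5F1AW. The F statistic was 4.03 (adjusted p = 0.228). It moved with single birds, to 2.11 without Og 1 (adjusted p = 0.464), 2.35 without Og 2 (0.432) and 7.80 without WL 1 (0.0861). Hyunin Black minus Ogye was -0.85 ± 0.25 (SE; 95% interval -1.40 to -0.31; adjusted p = 0.343), and Ogye minus White Leghorn was 0.83 ± 0.25 (adjusted p = 0.301), both from limma.

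SLC25A43, placed with this group although its substrate is less well settled, was the 1 member of 28 whose 3 birds of a breed all lay to 1 side of the other 12. Over all features 6.54% had such a breed, and in 0.683% it was Ogye. The Ogye birds were at 7.03, 7.14 and 7.11, and the highest other bird was Hyunin Black 1 at 6.96. Ogye had a mean of 7.09 ± 0.06 (SD, n = 3), and the other breeds lay between 6.82 and 6.85. Ogye minus White Leghorn was 0.25, and the other native breeds minus Ogye lay between -0.27 and -0.24. The smallest adjusted p among these 4 comparisons was 0.373 (limma).

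The carriers that exchange ADP for ATP showed no call. SLC25A6 had breed means from 11.77 ± 0.17 in Hwangbong to 12.02 ± 0.06 in White Leghorn, and SLC25A4 from 8.22 ± 0.51 in Hyunin Black to 8.57 ± 0.28 in White Leghorn. Hyunin Black 1 was the lowest bird for both, at 11.57 and 7.64. These proteins are closely alike, so probes of one may also read another, which was not checked. SLC25A24 and SLC25A25 exchange ATP-magnesium for phosphate. SLC25A24 stayed between 5.35 ± 0.10 in Ogye and 5.57 ± 0.29 in Hyunin Black. SLC25A25 spread widely within breeds, from 8.18 to 9.38 in Yakdak, from 7.95 to 9.10 in Hwangbong and from 8.19 to 9.22 in Hyunin Black, while its breed means differed by 0.48 at most. SLC25A36, a second pyrimidine nucleotide carrier, lay between 5.57 ± 0.25 in Yakdak and 5.70 ± 0.16 in Hwangbong.

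**Figure D2:**
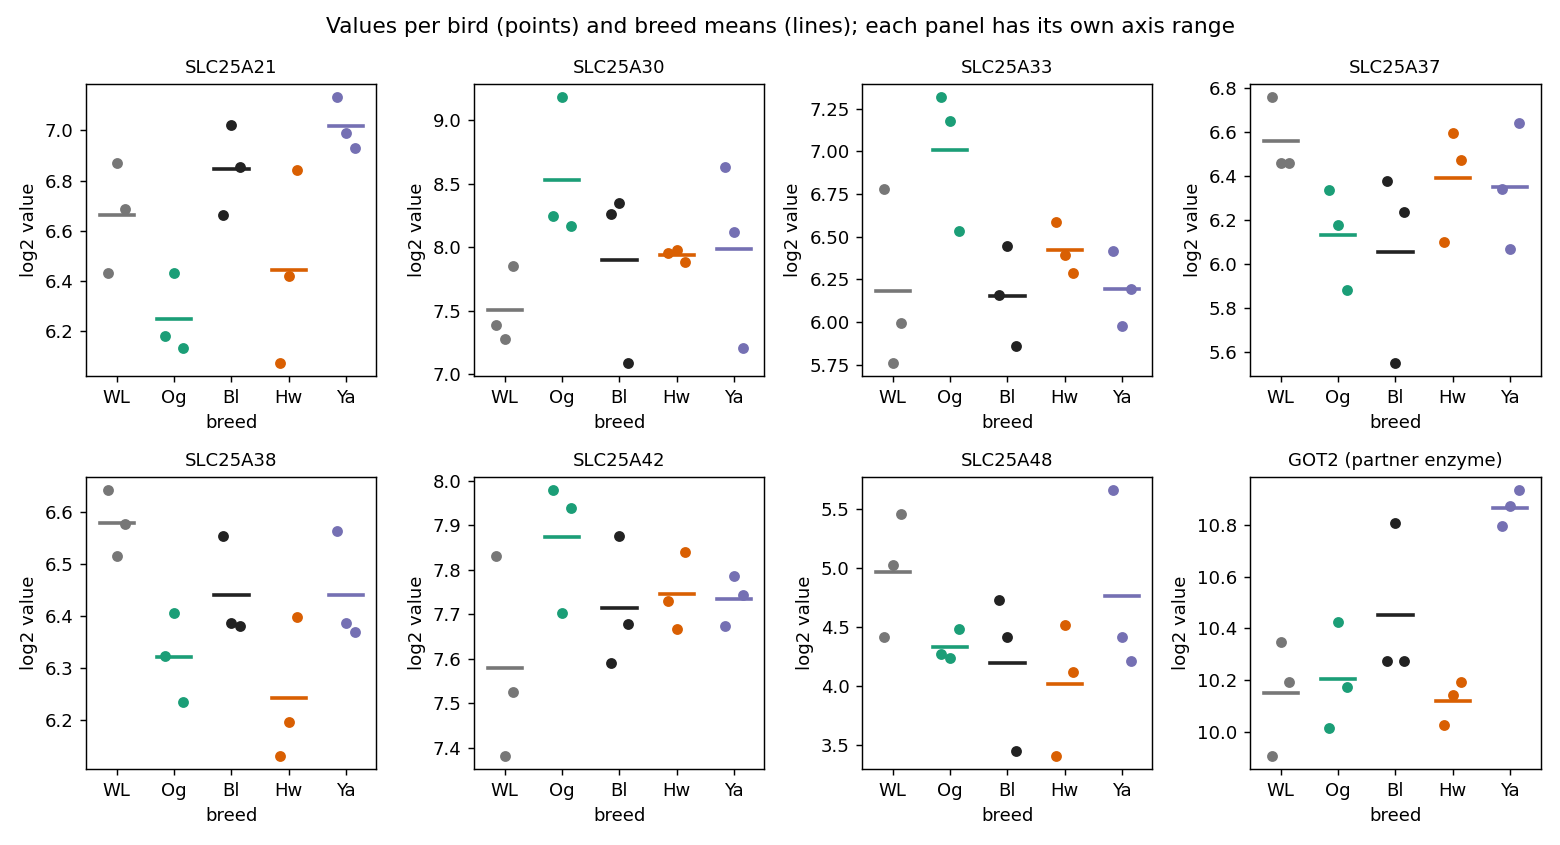
Log2 values of the 7 carriers with the largest F statistic of their role group, and of the partner enzyme GOT2, by breed. Points are single birds, 3 a breed, and lines are breed means, with an axis range of its own in each panel. SLC25A21 and GOT2 are high in all 3 Yakdak birds, the White Leghorn birds of SLC25A38 lie above those of Ogye and Hwangbong, and all breeds overlap in SLC25A42.

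Among amino acid carriers, SLC25A38 had the largest F. It brings glycine into mitochondria for heme synthesis. White Leghorn birds were at 6.64, 6.52 and 6.58, Hwangbong at 6.13, 6.20 and 6.40, Ogye at 6.32, 6.41 and 6.23, Hyunin Black at 6.55, 6.39 and 6.38 and Yakdak at 6.56, 6.39 and 6.37. All White Leghorn birds lay above all Hwangbong and Ogye birds. The F statistic was 3.09 (adjusted p = 0.314), and Hwangbong minus White Leghorn was -0.34 ± 0.10 (SE; 95% interval -0.56 to -0.11; limma adjusted p = 0.174).

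SLC25A15, the ornithine carrier, was highest in Yakdak at 5.35 ± 0.37 (SD, n = 3) and lowest in Hyunin Black at 4.77 ± 0.42. Their difference was 0.59 ± 0.20 (SE; limma adjusted p = 0.274), and the birds overlapped, since Yakdak 3 was at 4.96 and Hyunin Black 2 at 5.25. Its mean over all birds, 4.98, lay between those of HINTW and ATP5F1AW. SLC25A13, the liver form of the aspartate and glutamate carrier, was lowest in White Leghorn at 9.51 ± 0.12 and lay between 9.67 and 9.75 in the native breeds, with all 10 intervals within 0.5. SLC25A22, a glutamate carrier, lay between 7.09 ± 0.25 in White Leghorn and 7.26 ± 0.09 in Hyunin Black. SLC25A29, a carrier of basic amino acids, differed by up to 1.59 between birds of 1 breed, with Hwangbong at 7.07, 8.67 and 8.0, and by 0.46 between breed means.

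SLC25A42, which exchanges coenzyme A for adenine nucleotides, led the coenzyme and vitamin carriers. Its values were 7.83, 7.38 and 7.53 in White Leghorn, 7.98, 7.70 and 7.94 in Ogye, 7.59, 7.88 and 7.68 in Hyunin Black, 7.73, 7.67 and 7.84 in Hwangbong and 7.68, 7.79 and 7.74 in Yakdak. Each breed overlapped each other breed. Ogye minus White Leghorn was 0.29 ± 0.13 (SE; limma adjusted p = 0.498), and 0.19 without WL 2. SLC25A16, a carrier linked to coenzyme A, lay between 8.10 and 8.23 in breed mean. SLC25A26, which imports S-adenosylmethionine, lay between 6.01 and 6.24, and SLC25A32, a folate and flavin carrier, between 6.28 and 6.47.

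In the group of phosphate, iron and glutathione carriers the largest F was that of SLC25A37. This is mitoferrin 1, the iron importer that red cell precursors rely on. Values were 6.76, 6.46 and 6.46 in White Leghorn, 6.33, 6.18 and 5.88 in Ogye, 6.38, 5.55 and 6.24 in Hyunin Black, 6.10, 6.60 and 6.47 in Hwangbong and 6.34, 6.07 and 6.64 in Yakdak. White Leghorn lay above every Ogye and Hyunin Black bird. Hyunin Black minus White Leghorn was -0.50 ± 0.22 (SE; limma adjusted p = 0.381), and -0.25 without Bl 2.

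Chicken red cells keep their nucleus, and their RNA is part of a whole liver sample. Of 12 symbols listed for red cell markers 5 were measured. In limma 0 passed the F test, against 1.6% of all features, and 0 passed in any comparison, against 2.49%. The mean of the measured markers was lowest in White Leghorn, at 6.76 to 6.86 over the birds, and highest in Hyunin Black, at 7.14 to 7.56. It was 6.81 to 7.54 in Ogye, 6.91 to 7.15 in Hwangbong and 7.10 to 7.17 in Yakdak. The alpha-type globin HBA1 ranged from 9.23 in White Leghorn to 10.34 in Hyunin Black, and the globin HBAD from 8.95 to 10.44 in the same breeds. Both had an unadjusted p under 0.05 in the F test, as 16.1% of all features did (limma adjusted p = 0.0836 and 0.145). EPB42, SLC4A1 and TAL1 lay between 4.69 and 5.99 in breed mean. Their breed means differed by at most 0.19, 0.18 and 0.27 in that order. The red cell list thus ran opposite to SLC25A37 in White Leghorn and Hyunin Black, mainly through HBA1 and HBAD. Its part in the SLC25A37 values was not tested.

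The remaining members of that group differed little. SLC25A3, the main phosphate importer, lay between 10.56 ± 0.12 in Hwangbong and 10.73 ± 0.08 in Ogye, and SLC25A28, mitoferrin 2, between 8.65 and 8.78 in breed mean. SLC25A39, which takes up glutathione, lay between 8.04 and 8.26. The feature of SLC25A40, its close relative, read 2.13 to 2.75 over the 15 birds. The W chromosome genes averaged as much or more in these males, so the values of SLC25A40 say nothing certain of its RNA.

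SLC25A30, related in sequence to the uncoupling proteins, had the widest distance between breed means. Ogye birds were at 8.25, 9.18 and 8.16, White Leghorn at 7.39, 7.28 and 7.86, Hyunin Black at 8.26, 8.35 and 7.09, Hwangbong at 7.96, 7.98 and 7.88 and Yakdak at 8.63, 8.12 and 7.21. No Ogye bird overlapped White Leghorn, while Hyunin Black and Yakdak birds overlapped both. The difference was 1.02 ± 0.38 (SE; 95% interval 0.21 to 1.84), or 2.03-fold, with adjusted p = 0.417 (limma). Without Og 2 the difference was 0.70 (adjusted p = 0.746), below the distance of 0.95 that SLC25A48 had over all birds. Over all 5 breeds the F statistic was 1.87 (adjusted p = 0.508), and 0.93 without Og 2 (adjusted p = 0.75). It was 2.84 without Bl 3 (adjusted p = 0.369) and 2.94 without Ya 3 (0.37). UCP3, the avian uncoupling protein, carries its own symbol and is no member. It lay between 5.30 and 5.35 in all breed means (F adjusted p = 0.998).

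The last group holds SLC25A46, an outer membrane protein of mitochondrial shape, and SLC25A48, whose role is less well known. SLC25A46 had the smallest spread between birds of any member, an SD of 0.06, and breed means between 7.32 and 7.47. For SLC25A48 the birds read 4.42, 5.02 and 5.45 in White Leghorn, 4.27, 4.24 and 4.48 in Ogye, 4.73, 4.42 and 3.46 in Hyunin Black, 3.41, 4.51 and 4.12 in Hwangbong and 5.66, 4.42 and 4.21 in Yakdak. These values lie around that of HINTW, and its largest difference, Hwangbong minus White Leghorn at -0.95 ± 0.40 (SE; limma adjusted p = 0.339), had birds that overlapped.

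Each breed was next set against each other breed, and 0 of 28 members passed in any of the 10 comparisons, where 2.49% of all features passed in at least 1. Comparisons that share a breed share its birds. Against White Leghorn, 6 members had an unadjusted p under 0.05 in Ogye, namely SLC25A21, SLC25A30, SLC25A33, SLC25A38, SLC25A42 and SLC25A43. Over all features 9.14% did so there, and 0.191% passed after adjustment. Hyunin Black had 1, SLC25A37, against 11.7% and 0.164% of all features. Hwangbong had 2, SLC25A38 and SLC25A48, against 12.9% and 0.579%. Yakdak had 2, SLC25A10 and SLC25A15, against 12.8% and 0.552%.

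Native breeds were compared with each other in the same way. Hyunin Black against Ogye gave 3 members at an unadjusted p under 0.05, SLC25A21, SLC25A33 and SLC25A43, where 8.05% of all features had such a p and 0.0492% passed after adjustment. Hwangbong against Ogye gave 2, SLC25A33 and SLC25A43 (10.7% and 0.317% of all features). Yakdak against Ogye gave 3, SLC25A21, SLC25A33 and SLC25A43 (10.6% and 0.317%). Hwangbong against Hyunin Black gave 1, SLC25A21 (9.03% and 0.371%), and Yakdak against Hyunin Black gave 2, SLC25A10 and SLC25A15 (11.1% and 0.295%). Yakdak against Hwangbong, the pair with the most features called over the whole array, gave 2, SLC25A15 and SLC25A21 (13.2% and 1.46%).

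Carriers lay on both sides of White Leghorn in each native breed. The median size of the difference, whatever its sign, was 0.101 in Ogye against 0.12 over all features, 0.112 in Hyunin Black against 0.136, 0.162 in Hwangbong against 0.137 and 0.127 in Yakdak against 0.135. With the sign kept, the median over the 28 members was 0.0212 in Ogye, -0.00454 in Hyunin Black, -0.0132 in Hwangbong and 0.0449 in Yakdak, each minus White Leghorn, while the median of all features lay between -0.0124 and -0.00113. Members above White Leghorn numbered 15, 13, 13 and 17 of 28 in that order. Each breed held the highest mean for 5 or 6 members, and the lowest for 4 to 8.

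**Figure D3:**
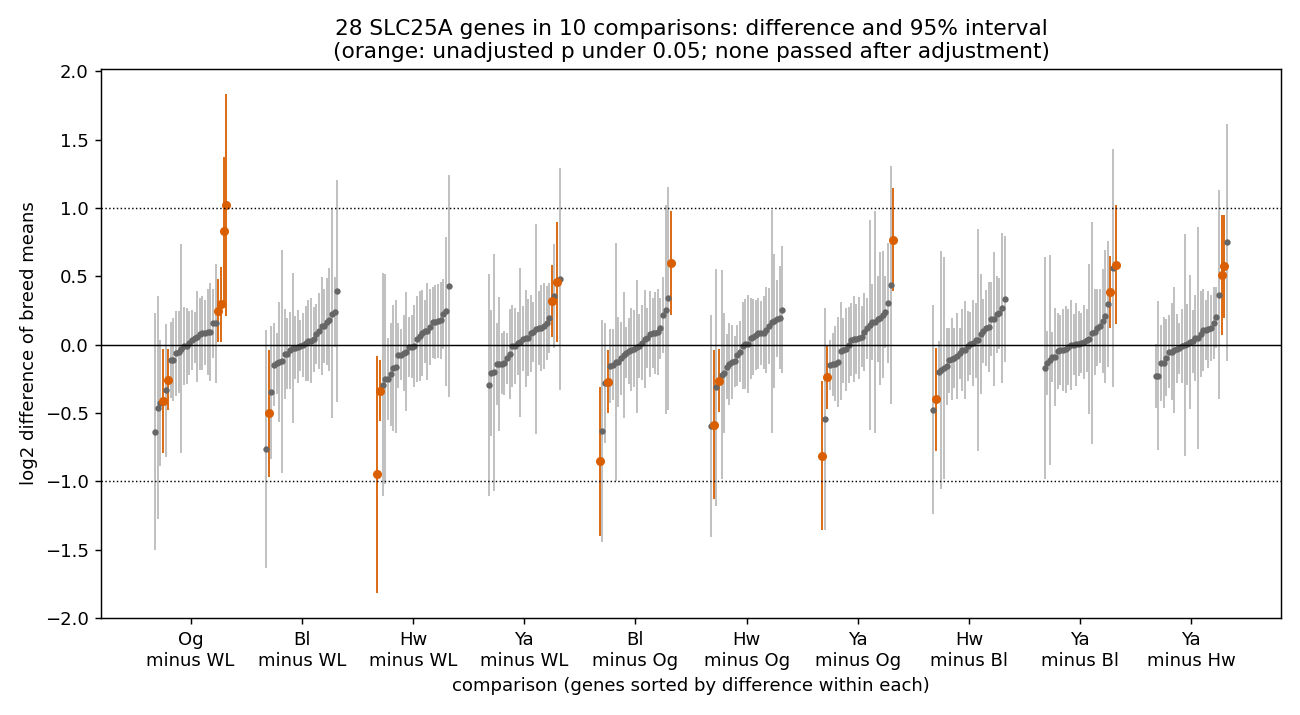
Difference of breed means on the log2 scale, with its 95% interval, for the 28 SLC25A genes in each of the 10 comparisons, sorted by size within a comparison. Orange marks an unadjusted p under 0.05, which 24 of 280 differences had, and dotted lines mark a 2-fold change. Most intervals lie inside the dotted lines, and those that cross them belong to 7 genes.

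The intervals show how large a difference in the array values the data could still hold, which need not equal a difference in RNA. Of the 280 differences, 250 had a 95% interval within 1 in either direction, that is within a 2-fold change, and 183 had one within 0.5. In 21 members all 10 intervals lay within 1, and in 13 all lay within 0.5. The latter were SLC25A1, SLC25A3, SLC25A13, SLC25A16, SLC25A20, SLC25A22, SLC25A28, SLC25A32 and SLC25A46. With values not shown to be above background, SLC25A24, SLC25A26, SLC25A36 and SLC25A40 belonged there too. For SLC25A15, SLC25A21, SLC25A25, SLC25A29, SLC25A30, SLC25A33 and SLC25A48 at least 1 interval reached beyond a 2-fold change. These intervals are not adjusted for the number of comparisons.

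In 25 of 28 members, or 89.3%, the widest range among the 3 birds of any breed exceeded the range of the 5 breed means. The share over all features was 88.1%, close to that of the carriers. The members that did otherwise were SLC25A10, SLC25A21 and SLC25A38. The residual SD between birds had a median of 0.17 over the members and 0.19 over all features, and it ran from 0.06 in SLC25A46 to 0.57 in SLC25A48.

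**Figure D4:**
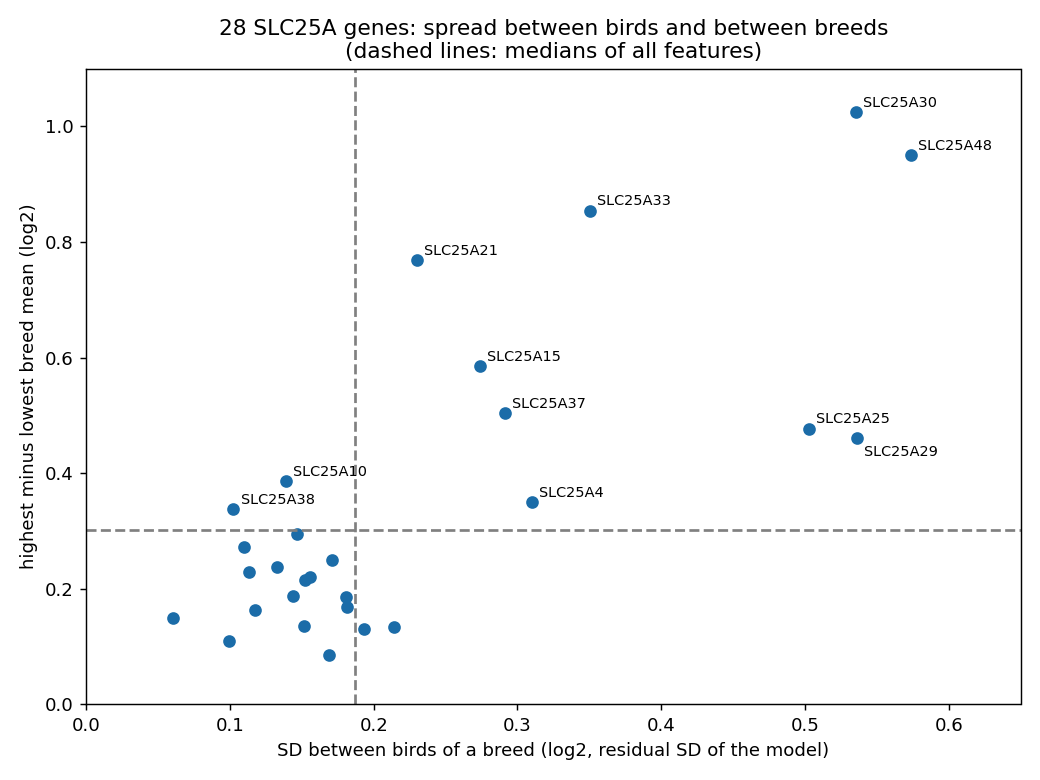
Distance between the highest and lowest breed mean against the SD between birds of a breed, both in log2 units, for the 28 SLC25A genes. Dashed lines are the medians of all features, 0.30 and 0.19. Most genes sit at low values on both axes, and SLC25A30, SLC25A48, SLC25A33 and SLC25A21 sit highest.

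Genes that work beside the carriers gave 1 call. Of 32 listed partner enzymes 19 were measured, of which 0 passed the F test, against 1.6% of all features, and 1 passed in a comparison of 2 breeds, against 2.49% of all features in any comparison and 1.46% in that one. That was GOT2, the mitochondrial aspartate aminotransferase, which makes the aspartate that SLC25A13 exports. It was at 10.79, 10.87 and 10.93 in Yakdak, 10.03, 10.14 and 10.19 in Hwangbong, 9.91, 10.35 and 10.19 in White Leghorn, 10.01, 10.42 and 10.17 in Ogye and 10.27, 10.81 and 10.27 in Hyunin Black. Yakdak birds lay above all birds of the other breeds except Hyunin Black 2. GOT2 was higher in Yakdak than in Hwangbong by 0.75 ± 0.16 (SE; limma adjusted p = 0.0338), and this call was lost without any 1 bird of the 2 breeds (adjusted p 0.0684 to 0.111) and with adjustment over all 10 comparisons together (adjusted p = 0.0659). Over all 5 breeds its F test missed the threshold (adjusted p = 0.0681) but passed with the replicate number as a block (adjusted p = 0.0297) and without Bl 2 (0.0334). SLC25A13 had a difference of -0.03 ± 0.12 between the same breeds (limma adjusted p = 0.959).

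At an unadjusted p under 0.05 in the F test there were 4 of the 19 enzymes, against 16.1% of all features, GOT2 and 3 others that are named after their values were seen. ME1 is the cytosolic malic enzyme, a source of the NADPH used in fatty acid synthesis. It averaged 9.25 ± 1.31 (SD, n = 3) in White Leghorn and 11.30 ± 0.33 in Ogye, with a limma F adjusted p of 0.176. White Leghorn 1 stood low at 7.75, while White Leghorn 2 and 3 were at 9.81 and 10.18. GLDC, the decarboxylase of the glycine cleavage system, ranged from 9.55 ± 0.46 in Ogye to 10.74 ± 0.39 in White Leghorn (limma F adjusted p = 0.189). PCK2, the mitochondrial phosphoenolpyruvate carboxykinase, ranged from 10.63 ± 0.05 in Ogye to 11.12 ± 0.27 in Yakdak (limma F adjusted p = 0.189).

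Of 29 symbols listed for other mitochondrial transport genes, some of them older names of the same gene, 15 were measured. In limma 0 passed, with 2 at an unadjusted p under 0.05 in the F test, where 1.6% and 16.1% of all features did so. MCUB, an inhibitory subunit of the calcium uniporter, was at 7.75 ± 0.30 (SD, n = 3) in Hyunin Black and between 6.99 and 7.12 elsewhere (F adjusted p = 0.138). VDAC1, the outer membrane pore, ranged from 8.98 ± 0.06 in Hwangbong to 9.43 ± 0.13 in Yakdak (F adjusted p = 0.203). Of 8 other symbols listed for family members 3 were measured, UCP3 and the outer membrane proteins MTCH1 and MTCH2. MTCH1 lay between 5.23 and 5.5 and MTCH2 between 8.80 and 9.05 in breed mean, and 0 of the 3 passed, with 0 at an unadjusted p under 0.05 in limma. UCP3 and MTCH1 lay below ATP5F1AW, so their values are not shown to be above background.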

How the data were processed

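Total liver RNA of 15 birds was labelled as biotinylated cDNA and hybridised to 1 array each. Per the submitters' processing notes, the authors made the deposited log2 values by RMA, with Affymetrix Expression Console 1.3.1 as the tool. The probe filter, the summarization and the genome build are not given in the sources used here. The number of arrays limits the precision. The table held 18308 features with 0 missing values.

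Gene symbols came from the platform annotation, in which 12300 features had 1 symbol, 256 several and 5752 none. Through the annotation's gene IDs 26 of 28 members matched a current chicken gene; SLC25A6 and SLC25A25 had none. Probe positions were not checked.

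Breed means of all features were fitted with limma 3.58.1 in R 4.3.3 (lmFit, eBayes) with 10 residual and 3.89 prior degrees of freedom. P-values were two-sided and adjusted by Benjamini-Hochberg over all features, and 0.05 was the threshold. The median SE of a breed difference was 0.15. Groups came from the sample titles. The labels call the birds biological replicates. Replicate numbers entered only an alternative.

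Members, role groups and other lists were chosen with earlier results of these data known. All members could be named; values per bird were given for the member with the largest F of each role group, and further members with values per bird were chosen after their values were seen. From the other lists, members that passed were named, or otherwise those with the largest F. Alternatives were trend and robust moderation, array weights, quantile normalisation, median centring, leaving out the 33.3% of features with the lowest means, 1 feature per gene, the lowest-mean feature, adjustment over all 10 comparisons, only the compared breeds, the replicate block, and leaving out each bird.

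The fit was tested on simulated data: with 200 changed features of 18308 in Yakdak, Yakdak minus White Leghorn recovered 9.8% of changes of 0.5, 79% of changes of 1 and 97.8% of changes of 2 on the log2 scale, and the F test 1.4%, 77.7% and 97.4%. The simulated noise was normal and independent between features, and no other feature differed between breeds. These shares therefore need not hold for the real arrays.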

Additional observations from a re-analysis of the deposited data

How the results depend on the processing

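The count of carriers that differed was 0 in the F test and in each of the 10 comparisons, and it was 0 under all alternatives run, 23 for the F test and 25 for each comparison, including those that left out 1 bird at a time (0 to 0). Only 1.6% of all features passed the F test, so a steady count of 0 among 28 carriers says little. Taking the lowest-mean feature could change the values of SLC25A29 only. The replicate numbers are not shown to pair the birds, though same-numbered birds were somewhat more alike. Deviations of same-numbered birds from their breed means correlated at -0.09 to 0.24 (median 0.039), above 0.1 in 8 of 30 pairs. For birds with different numbers the range was -0.23 to 0.16 (median -0.015), above 0.1 in 6 of 60 pairs. Deviations from a breed mean cancel within the breed, so these values follow in part from those of same-numbered birds. Of 15 birds, 8 correlated best with their own number. The block moved the features called over the whole array from 293 to 301. With the replicate number as a block the count was 0 as well, and SLC25A21 had F = 7.14 (adjusted p = 0.101). Over the F tests of the 28 carriers and of GOT2, ME1, GLDC, PCK2, MCUB, VDAC1, UCP3, MTCH1 and MTCH2, the block changed 1 call, that of GOT2 (F = 13.3, adjusted p = 0.0297). That test also passed with trend and robust moderation (adjusted p = 0.0498), without the 33.3% of features with the lowest means (0.0492) and without Bl 2 (0.0334); over all alternatives it ran from 0.0297 to 0.187, and the cause was not tested. The adjusted p of GOT2 in Yakdak minus Hwangbong ran from 0.0109 to 0.111. For SLC25A21 the adjusted p of the F test ran from 0.0555 to 0.221, and that of Yakdak minus Ogye from 0.0565 to 0.229. SLC25A15, SLC25A40 and SLC25A48 have no value without the features of lowest mean, since they are among them. Of 16 differences recomputed under the alternatives, 15 kept their direction. Those 15 were among the largest of their genes and were chosen with the values known, so a kept direction says little. The other, SLC25A13 in Yakdak minus Hwangbong, is near 0. It turned to 0.051 without Hw 3 and 0.043 without Ya 1, and ran from -0.13 to 0.051 without 1 bird. With 3 birds a breed, changes of 0.5 on the log2 scale were mostly missed on simulated data. Those changes were put in Yakdak only, in features drawn from the whole array, so the share missed is not that of the carriers. Carriers differed in their SD between birds, from 0.06 in SLC25A46 to 0.57 in SLC25A48. A difference of 0.5 may have been missed, more readily in carriers with a large SD.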

Other observations

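The second feature of SLC25A29, which lies lower on the array's scale than the one described above, had a smaller spread between birds. Its breed means were 5.82 ± 0.23 (SD, n = 3) in White Leghorn, 5.74 ± 0.16 in Hyunin Black, 5.67 ± 0.12 in Yakdak, 5.46 ± 0.17 in Ogye and 5.23 ± 0.27 in Hwangbong. The F statistic of the second feature was 4.57 (limma adjusted p = 0.19), against 0.44 for the feature used (adjusted p = 0.904). The order of the breeds also differed, since Hwangbong was lowest on the second feature and Ogye on the first. Which transcripts the 2 features read was not checked.

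Another pair of features names an SLC25A gene together with a further gene and so could not be assigned to it. The feature shared by SLC25A5 and SLC25A6 had breed means between 9.20 and 9.51 (F adjusted p = 0.886), and that shared by MRPL12 and SLC25A10 between 7.45 and 7.57 (F adjusted p = 0.945).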
